A study of Homo sapiens with 16 samples.

Results

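The antioxidant genes described here are 51 genes of the glutathione, thioredoxin and NADPH systems and of their regulator NRF2, measured by RNA-seq in OCI-AML3, an established cell line from acute myeloid leukemia (AML). They were found by matching a list of symbols to the Ensembl identifiers of the deposited table of 62700 genes. The list holds 20 genes of glutathione synthesis and use, 13 of the thioredoxin system, and 5 for superoxide, peroxide and quinones (superoxide dismutases, catalase and NQO enzymes). It also holds 5 enzymes of pathways that supply NADPH, and 8 genes grouped as NRF2 regulators, among them the NRF2-responsive gene OSGIN1. TRIM16L has 2 identifiers, of which one had no read in any library, so the 51 symbols filled 52 rows of the table. Averaged over all 16 libraries, 50 of the 51 genes reached 10 normalized counts, and these were tested. GPX8, a glutathione peroxidase-like enzyme of the endoplasmic reticulum, was the exception, with at most 3.74 normalized counts in any library.

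The study compared the retinoids ATRA, which activates all retinoic acid receptors, and Am80 (tamibarotene), which prefers RARA, with and without inhibitors of the histone demethylase LSD1 and the histone acetyltransferase GCN5. Untreated cells gave 4 libraries, and 4 treatments gave 3 libraries each: ATRA at 0.1 µM, Am80 at the same dose, ATRA plus GSK-LSD1 at 0.1 µM plus MB3 at 100 µM, and Am80 with these inhibitors. Cells were treated for 3 h, and the concentrations are those that the study's methods give for its cell lines. GSK-LSD1 inhibits LSD1 and MB3 inhibits GCN5, and they were given only together and only beside a retinoid, so their separate effects, and their effect without a retinoid, cannot be told apart here. All libraries come from 1 cell line, and nothing in the labels says that the replicates were separate cultures, so the p-values measure the spread between these libraries, which may be technical.

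Cells handle peroxides and electrophiles with the thiols glutathione and thioredoxin, which are kept reduced by NADPH. Glutathione is made from cystine-derived cysteine by glutamate-cysteine ligase (subunits GCLC and GCLM) and GSS, is recycled by GSR, and is spent by peroxidases, glutaredoxins and transferases, while thioredoxin is recycled by the TXNRD reductases and reduces the peroxiredoxins. Many of these genes are targets of the transcription factor NRF2 (gene NFE2L2). KEAP1 holds NRF2 back by marking it for degradation until electrophiles or oxidants modify KEAP1, after which NRF2 pairs with a small MAF protein and binds antioxidant response elements.

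The deposited values are normalized counts, whole reads divided by a size factor of each library. Depth ranged from 11963898 to 33789718 reads per library, with Am80 replicate 2 the deepest, and all 18 pairs of replicates differed by more than counting noise (chi-square per degree of freedom 2.68 to 28.2). All 12 markers of a myeloid leukemia line passed the filter, although MPO, a defining enzyme of the granulocyte lineage, was low at 23.9 to 53.2 normalized counts. The T cell marker CD3D and the B cell marker MS4A1 had no read, and the red cell and epithelial lists summed to at most 1.10 and 11.6 normalized counts in any library. Among untreated libraries, replicate 4 had the highest value for 33 of the 50 tested antioxidant genes (66.0%), against 37.6% of all 14643 genes tested, so counts against untreated cells are also given without it. Scaling the libraries to total reads moved the median log2 fold change of all genes to between -0.13 and -0.19 in the 4 comparisons of a combination, where it was between -0.02 and -0.00 with the deposited size factors, and changes below are relative to the latter. In bulk RNA, fewer cells of a kind and less RNA per cell cannot be told apart.

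Adding GSK-LSD1 and MB3 to a retinoid raised at least 1 antioxidant gene of each branch within 3 h. The called rises ran from 1.53-fold (PRDX1 beside ATRA) to 32.7-fold (OSGIN1 beside Am80). Called in no comparison of a treatment were 28 of the 50, a share that was not counted over all genes. Genes were called where the adjusted p-value (limma on log2 of normalized count + 1, Benjamini-Hochberg over all genes tested) was under 0.05 and the change at least 1.5-fold. Beside ATRA, 12 of the 50 were higher and 5 lower, where 8.15% of all genes tested were higher and 11.4% lower. Beside Am80, 12 were higher and 2 lower, where 6.81% of all genes were higher and 8.9% lower. By branch, 3 and 2 of 19 glutathione genes were higher beside ATRA and Am80, and 2 and 2 of 13 thioredoxin genes. The superoxide, catalase and quinone genes had 1 and 1 of 5 higher, NADPH supply 2 and 2 of 5, and the NRF2 regulators 4 and 5 of 8. Lower were 2 and 0 glutathione genes, 2 and 2 thioredoxin genes and 1 and 0 NRF2 regulators. The 50 genes had a median log2 fold change of 0.15 beside ATRA and 0.22 beside Am80, against -0.02 and -0.01 over all genes. Higher in both comparisons were 11 genes: GCLM and SLC7A11 for glutathione, TXNRD1 and PRDX1 for thioredoxin, NQO1 for quinones, PGD and ME1 for NADPH, and NFE2L2, MAFF, MAFG and OSGIN1 of the NRF2 group. TXNRD3 alone was lower in both. With the libraries scaled to total reads, 10 were higher and 6 lower beside ATRA, and 11 and 3 beside Am80.

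**Figure D1:**
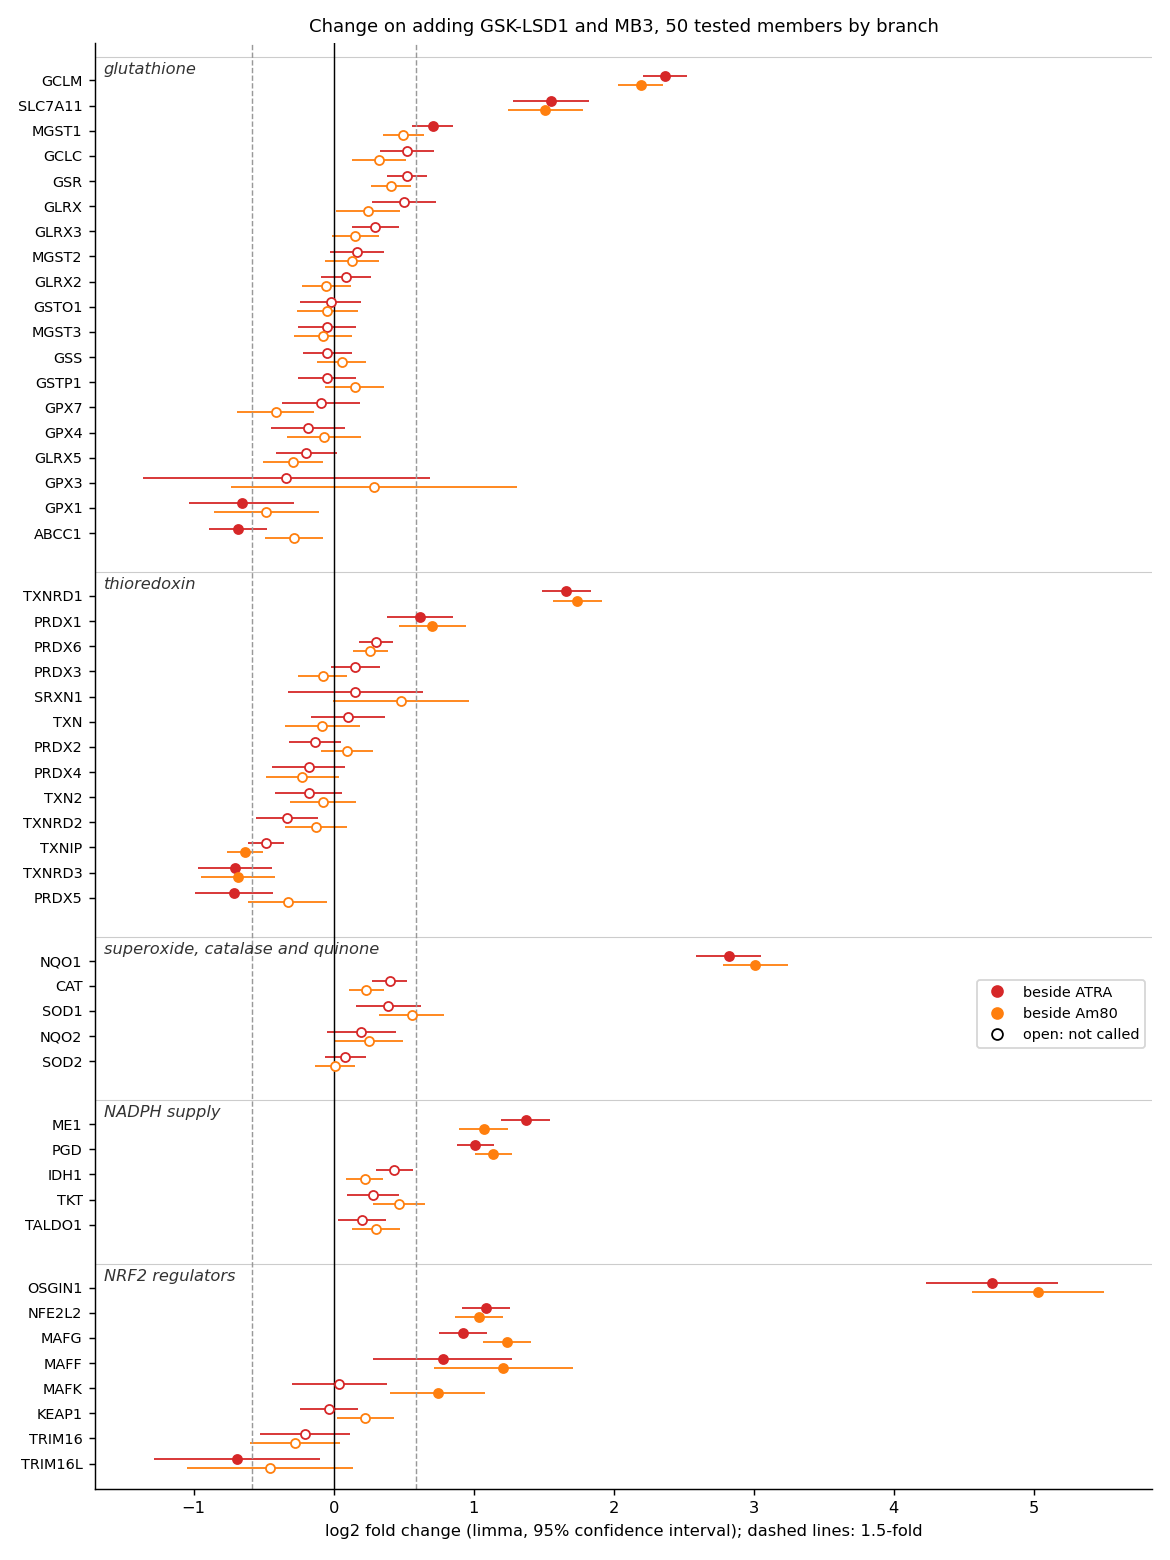
Log2 fold change (x axis, limma with 95% confidence interval) on adding GSK-LSD1 and MB3 beside ATRA (red) and beside Am80 (orange) for the 50 tested genes, by branch (y axis). Filled points were called and open points were not, the dashed lines mark 1.5-fold, and 11 genes lie beyond the right line with filled points in both colours.

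In the glutathione branch, a subunit of the rate-limiting enzyme and the cystine transporter rose beside both retinoids. Of the 19 tested genes, 13 were called in no comparison of a treatment, a share that was not counted over all genes. GCLM, the modifier subunit of glutamate-cysteine ligase (chromosome 1, 93885205 to 93909456, coordinates of GENCODE on GRCh38), had 999.9, 1033, 1075 and 977 normalized counts in untreated cells, 911, 802 and 876 with ATRA and 965, 1116 and 916 with Am80. It had 4339.6, 4796 and 4238 with ATRA and the inhibitors and 4557, 4573 and 4527 with Am80 and the inhibitors, so that all 6 libraries with inhibitors lay above all 10 without. The log2 fold change of GCLM was 2.37 beside ATRA (standard error 0.08, adjusted p = 2.62e-14, limma) and 2.19 beside Am80 (standard error 0.08, adjusted p = 2.99e-14, limma). GCLC, the catalytic subunit of the same enzyme, was not called: it had 288, 285 and 327 normalized counts with ATRA and 440.3, 451 and 404 with ATRA and the inhibitors, and 292, 346 and 332 and 426, 399 and 389 for Am80. Its groups did not overlap either, but its log2 fold changes of 0.52 and 0.32 (adjusted p = 0.000108 and 0.0085, limma) were under the 1.5-fold limit. Without ATRA replicate 3 the first was 0.59, just past it. The level of GCLM per kb of transcript was 2.10 to 2.61 times that of GCLC in every library without inhibitors and 7.71 to 9.11 times that of GCLC in every library with them.

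**Figure D2:**
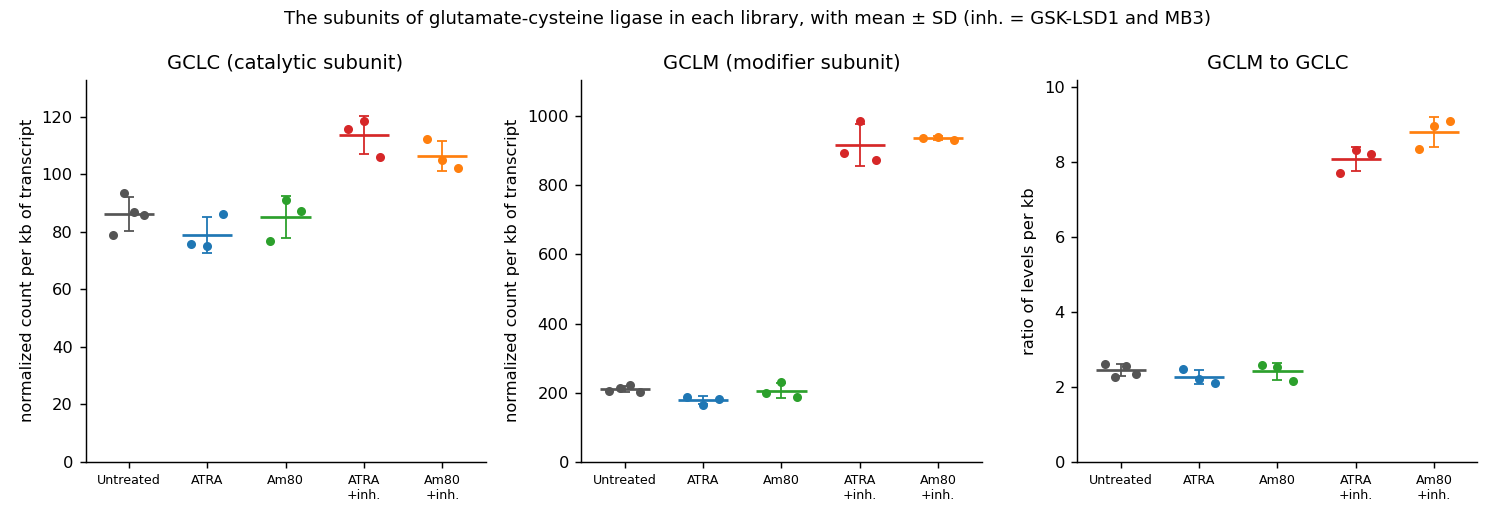
Levels of GCLC and GCLM as normalized counts per kb of transcript (y axes of the left and middle panels) and the ratio of GCLM to GCLC (y axis of the right panel) in each library of the 5 groups (x axis). Points are libraries, bars are the mean ± SD (n = 4 for untreated cells, n = 3 otherwise), and the ratio is 2.10 to 2.61 without inhibitors and 7.71 to 9.11 with them.

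SLC7A11, the cystine transporter that feeds glutathione synthesis, had 282, 271 and 253 normalized counts with ATRA and 740.0, 932 and 712 with ATRA and the inhibitors. With Am80 it had 257, 328 and 241, and with Am80 and the inhibitors 901, 738 and 715, again without overlap. Its log2 fold changes were 1.55 (standard error 0.13, adjusted p = 1.31e-08, limma) and 1.51 (standard error 0.13, adjusted p = 1.66e-08, limma). GSS, which adds glycine in the last step of synthesis, had log2 fold changes of -0.05 and 0.06 and was not called. GSR, which reduces oxidized glutathione, had 0.52 and 0.41, with adjusted p = 4.46e-06 and 8.61e-05 (limma) but under 1.5-fold.

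MGST1, a microsomal glutathione transferase, rose beside ATRA from 2641 ± 79.2 to 4313 ± 194 normalized counts (SD, n = 3 each, log2 fold change 0.71, adjusted p = 1.47e-07, limma) and reached 0.50 beside Am80, under the limit. Untreated cells had 3488 ± 317 (SD, n = 4), above every library with a retinoid alone and below every library with inhibitors. Scaled to total reads or by quantiles, the change beside ATRA was 0.56 and 0.54 and was no longer called. Of this branch 2 genes, GPX1 and ABCC1, were called lower with the inhibitors, both beside ATRA. GPX1, the main cytosolic glutathione peroxidase, fell by 0.66 on the log2 scale (adjusted p = 0.0051, limma), from 1733, 2126 and 2268 to 1420.5, 1199 and 1254 normalized counts. Without ATRA replicate 3 the fall of GPX1 was -0.58, under the limit, and beside Am80 its log2 fold change was -0.48, not called, but -0.73 and called without Am80 replicate 2. ABCC1, a pump that exports glutathione conjugates, fell from 407, 431 and 395 to 273, 273 and 224 normalized counts beside ATRA (log2 fold change -0.68, adjusted p = 1.48e-05, limma) and had a log2 fold change of -0.28 beside Am80. Untreated cells had 278, 311, 298 and 287 normalized counts of ABCC1, below every library with a retinoid alone. The combinations, at 257 ± 28.4 with ATRA and 297 ± 8.28 with Am80 (SD, n = 3 each), thus stood nearer to the untreated level. The difference between the 2 retinoids in the effect of the inhibitors on ABCC1 was 0.40 (95% confidence interval 0.11 to 0.70, adjusted p = 0.226, limma), so it was not shown to differ. The other 13 tested genes were called in none of the 6 comparisons with untreated cells or with the retinoid alone: GCLC, GSS, GPX3, GPX4, GPX7, GSTP1, GSTO1, MGST2, MGST3, GLRX, GLRX2, GLRX3 and GLRX5. Scaled to total reads, GLRX5, a mitochondrial glutaredoxin of iron-sulfur cluster assembly, was called lower in both combinations against untreated cells (-0.67 and -0.68).

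Antioxidant response elements share the letters TGACNNNGC, and promoters of the genes that rose are shown here because NRF2 partners with MAF proteins at such letters. RefSeq promoter windows of 300 bases (250 before to 50 after the start, GRCh38.p14) were given for 39 of the 51 genes and not for GSR, GLRX3, MGST2, TRIM16L, PRDX1, TXN2, PRDX6, GSS, SOD1, ABCC1, MAFK and SLC7A11. The letters, searched on both strands with overlaps allowed, stood in 10 of the 39, in 5 of the 9 genes that were higher in both comparisons and have a window, and in 5 of the other 30. Over all genes with a window the share was 16.1%, and over all 35116 windows 13.3%, and no test was made of the difference. The matches upstream of the start lay at -34 to -26 in GCLM (chr1:93909436-93909484, minus strand), at -99 to -91 and -102 to -94 in the windows of the 2 starts of TXNRD1 (chr12:104215660-104215708, plus strand, and chr12:104286910-104286958, plus strand), at -137 to -129 in ME1 (chr6:83431160-83431208, minus strand), at -201 to -193 in PGD (chr1:10398843-10398891, plus strand) and at -122 to -114 in MAFF (chr22:38201852-38201900, plus strand). GSTP1 (chr11:67583726-67583774, plus strand) is shown beside ME1 because its match at -66 to -58 has the same 9 letters, which also hold TGACTCA, the letters of an AP-1 site. Each stretch is written 5′ to 3′ on the strand of its gene with the match in capitals, which reads as the reverse complement in GCLM, PGD, MAFF and the second start of TXNRD1:
GCLM: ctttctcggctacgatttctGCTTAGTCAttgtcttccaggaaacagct
TXNRD1, first start: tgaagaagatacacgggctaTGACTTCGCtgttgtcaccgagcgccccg
TXNRD1, second start: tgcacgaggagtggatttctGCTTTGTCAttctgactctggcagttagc
ME1: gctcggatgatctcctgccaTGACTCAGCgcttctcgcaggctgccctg
PGD: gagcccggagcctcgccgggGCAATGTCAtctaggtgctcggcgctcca
MAFF: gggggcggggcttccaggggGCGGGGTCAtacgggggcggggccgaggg
GSTP1: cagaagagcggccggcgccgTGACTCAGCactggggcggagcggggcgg

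ME1 and GSTP1 share these letters and differed in response: ME1 rose with the inhibitors beside both retinoids, whereas GSTP1, a cytosolic glutathione transferase, had log2 fold changes of -0.05 (95% confidence interval -0.26 to 0.16) and 0.15 (-0.06 to 0.36). Other matches upstream of the start lay in IDH1, GSTO1 and KEAP1, and MGST1 had one after the start. The windows of NQO1, NFE2L2, MAFG and OSGIN1, which rose, held no match, which says only that these letters are not in this window.

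In the thioredoxin branch, the cytosolic reductase rose, the thioredoxins did not, and single genes fell. TXNRD1, the cytosolic thioredoxin reductase (chromosome 12, 104215779 to 104350305, GRCh38), had 3960.5, 4104, 3608 and 4004 normalized counts in untreated cells. It had 3858, 3381 and 3889 with ATRA and 10875, 13511 and 10967 with ATRA and the inhibitors, and 3996, 4315 and 3788 with Am80 and 14070.2, 13313 and 13000.5 with Am80 and the inhibitors. The inhibitors thus raised TXNRD1 3.17-fold beside ATRA (adjusted p = 8.1e-12, limma) and 3.34-fold beside Am80 (adjusted p = 4.18e-12, limma), with no overlap between groups. TXNRD3, a reductase known mainly from testis, moved the other way: it had 194, 173 and 188 normalized counts with ATRA and 122, 108 and 109 with the inhibitors added, and 183, 195 and 185 and 136, 111 and 104 for Am80. It fell by 0.71 and 0.68 on the log2 scale (adjusted p = 0.00014 and 0.000243, limma), and by quantile normalization its log2 fold changes of -0.58 and -0.55 were under the limit. TXNRD2, the mitochondrial reductase, had log2 fold changes of -0.33 and -0.12 and was not called.

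TXN, the cytosolic thioredoxin that TXNRD1 reduces, had 2607, 2329 and 2896 normalized counts with ATRA and 2657, 2941 and 2781 with ATRA and the inhibitors, and 3595, 3706 and 3006 with Am80 and 3489, 3468 and 2795 with Am80 and the inhibitors. These groups overlapped for both retinoids, with log2 fold changes of 0.10 (95% confidence interval -0.16 to 0.37) and -0.08 (-0.35 to 0.19). TXN2, its mitochondrial counterpart, had -0.18 and -0.08. TXNIP, which binds and inhibits thioredoxin and also limits glucose uptake, fell with the inhibitors beside Am80 from 6911, 7412 and 6663 to 4284, 4578 and 4626 normalized counts (log2 fold change -0.64, adjusted p = 8.94e-08, limma). Beside ATRA it went from 6787, 6434 and 6801 to 4859, 4494 and 4963, a log2 fold change of -0.48 with adjusted p = 2.75e-06 (limma) that was under 1.5-fold, and past it when scaled to total reads or by quantiles (-0.63 and -0.62). All 6 libraries with inhibitors lay below all 10 without.

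Of the 6 peroxiredoxins, PRDX1, an abundant cytosolic peroxidase, rose from 2199, 2193 and 2438 to 3151, 3971 and 3384 normalized counts beside ATRA and from 2566, 2599 and 2304 to 4331, 4163 and 3688 beside Am80. Its log2 fold changes were 0.62 (adjusted p = 0.000174, limma) and 0.70 (adjusted p = 5.37e-05, limma), close to the limit: scaled to total reads they were 0.47 and 0.58, by quantiles 0.46 and 0.56, and without replicate 2 of ATRA with inhibitors the first was 0.52, so the call was lost in each. Part of PRDX1, 24.9% of its exonic bases, overlaps MMACHC on the other strand, and the strand setting of the counting is not given in the sources used here. PRDX5, a peroxidase found in mitochondria and peroxisomes, fell beside ATRA from 2821, 2731 and 2883 to 1661, 1847 and 1647 normalized counts (log2 fold change -0.71, adjusted p = 0.000221, limma) and had -0.33 beside Am80, not called. The log2 fold changes of PRDX2, PRDX3, PRDX4 and PRDX6 lay between -0.22 and 0.30, and none was called. SRXN1, sulfiredoxin, which restores overoxidized peroxiredoxins, had 36.6, 43.1 and 55.5 and 58.6, 52.2 and 39.8 normalized counts without and with the inhibitors beside ATRA, and 39.0, 33.7 and 62.9 and 61.4, 67.3 and 55.4 beside Am80, with overlap in both and log2 fold changes of 0.15 (-0.33 to 0.64) and 0.48 (-0.00 to 0.96). Without Am80 replicate 3 the second was 0.74 and called. The count of SRXN1 is uncertain, since 85% of its exonic bases are shared with another annotated gene, AL121758.1, on the same strand.

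NQO1, which reduces quinones with NADPH or NADH, had the second largest rise of the 50 genes in both comparisons. NQO1 (chromosome 16, 69706996 to 69726951, GRCh38) had 367, 425, 384 and 476 normalized counts in untreated cells, 401, 348 and 383 with ATRA and 429, 395 and 412 with Am80. With the inhibitors it had 2387, 3224 and 2469.9 beside ATRA and 3625, 3443 and 2959 beside Am80, far above every library without them. The rise was 7.07-fold beside ATRA (log2 fold change 2.82, standard error 0.11, adjusted p = 2.35e-13, limma) and 8.07-fold beside Am80 (log2 fold change 3.01, standard error 0.11, adjusted p = 6.51e-14, limma). NQO2, a related quinone reductase that uses another cofactor, had log2 fold changes of 0.20 and 0.25 and was not called. SOD1, the cytosolic superoxide dismutase, had 0.39 and 0.56, catalase (CAT) 0.40 and 0.23, all 4 with adjusted p-values between 2.04e-05 and 0.0065 (limma) but under 1.5-fold. Without replicate 3 of Am80 with inhibitors, SOD1 beside Am80 was 0.65 and called. SOD2, the mitochondrial dismutase, had 0.08 (95% confidence interval -0.06 to 0.23) and 0.01 (-0.13 to 0.15).

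Of the 5 genes of NADPH supply, 1 in the pentose phosphate pathway and malic enzyme rose beside both retinoids. PGD, the second NADPH-producing enzyme of the pentose phosphate pathway, had 2248, 2289 and 2233 normalized counts with ATRA and 4341, 4854 and 4452 with the inhibitors added, and 2416, 2292 and 2477 and 5370.4, 5325 and 5118 for Am80. PGD thus rose 2.01-fold (adjusted p = 2.47e-10, limma) and 2.2-fold (adjusted p = 3.94e-11, limma). ME1, cytosolic malic enzyme, had 421, 389.9 and 429 with ATRA and 1055, 1091 and 1065 with the inhibitors added, and 483, 519 and 455 and 945, 1094 and 1026 for Am80. It rose 2.59-fold (adjusted p = 1.8e-10, limma) and 2.1-fold (adjusted p = 5.65e-09, limma), and neither gene's groups overlapped. TKT and TALDO1, which recycle pentose phosphates without making NADPH, had log2 fold changes of 0.28 and 0.20 beside ATRA and 0.47 and 0.30 beside Am80, and IDH1, cytosolic isocitrate dehydrogenase, had 0.43 and 0.22. None of the 3 reached 1.5-fold, and their adjusted p-values were under 0.05 in both comparisons, except TALDO1 beside ATRA (adjusted p = 0.0501, limma).

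Among the NRF2 regulators, the transcripts of NRF2 itself and of the small MAF partners MAFF and MAFG rose beside both retinoids, the third small MAF gene, MAFK, was called beside Am80 only, and KEAP1 was not called. NFE2L2, which encodes NRF2, had 1275, 1319, 1359 and 1239 normalized counts in untreated cells, 1141, 983 and 1082 with ATRA and 1119, 1282 and 1072 with Am80. With the inhibitors it had 2051, 2515 and 2268 beside ATRA and 2433, 2389 and 2306 beside Am80, a 2.13-fold rise (adjusted p = 3.21e-09, limma) and a 2.06-fold rise (adjusted p = 5.84e-09, limma) without overlap. KEAP1 had 2062, 2111 and 2267 and 2128, 2123 and 2037 normalized counts without and with the inhibitors beside ATRA, and 2426, 1874 and 2468 and 2744, 2684 and 2428 beside Am80. Its log2 fold changes were -0.03 (95% confidence interval -0.24 to 0.17) and 0.22 (0.02 to 0.43). TRIM16, a ubiquitin ligase reported to stabilize NRF2, had -0.21 and -0.28 and was not called.

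MAFG, the most abundant of the 3 small MAF genes per kb of transcript in these cells, had 2972, 2997 and 2838 normalized counts with ATRA and 5372, 6188 and 5191 with ATRA and the inhibitors, and 3002, 2631 and 3129 with Am80 and 7381, 6959 and 6293 with Am80 and the inhibitors. It rose 1.9-fold (adjusted p = 2.86e-08, limma) and 2.36-fold (adjusted p = 4.83e-10, limma). MAFF was also higher with the retinoids alone: it had 29.3, 52.6, 16.2 and 35.5 normalized counts in untreated cells, 158, 139 and 157 with ATRA and 165, 157 and 153 with Am80. With the inhibitors it had 253, 268 and 259 beside ATRA (1.72-fold, adjusted p = 0.0104, limma) and 395, 359 and 350.2 beside Am80 (2.31-fold, adjusted p = 0.000405, limma). Untreated cells, the retinoids alone and the combinations did not overlap. MAFK was called beside Am80, with 376, 245 and 437 normalized counts without and 659, 564 and 509 with the inhibitors (log2 fold change 0.74, adjusted p = 0.00118, limma). That call rests on Am80 replicate 2, the lowest of its group: without it the log2 fold change was 0.50, under the limit. Beside ATRA MAFK had 396, 403 and 370.2 and 428, 466 and 323, a log2 fold change of 0.04, and the difference between the retinoids was 0.70 (95% confidence interval 0.22 to 1.18, adjusted p = 0.226, limma).

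OSGIN1, a small NRF2-responsive gene linked to growth inhibition and cell death under oxidative stress, had the largest rise of the 50 genes in both comparisons. OSGIN1 (chromosome 16, 83948282 to 83966332, GRCh38) had 39.0, 19.4, 31.1 and 22.2 normalized counts in untreated cells, 16.4, 17.3 and 20.2 with ATRA and 27.9, 16.1 and 24.6 with Am80. It reached 404, 601 and 485 with ATRA and the inhibitors and 858, 760.1 and 673 with Am80 and the inhibitors, so the highest of the 10 libraries without inhibitors and the lowest of the 6 with them stood at 39.0 and 404. The log2 fold changes were 4.70 (standard error 0.23, adjusted p = 4.08e-12, limma) and 5.03 (standard error 0.23, adjusted p = 1.44e-12, limma). TRIM16L, a paralog of TRIM16 with which it may share reads, was called lower beside ATRA, with 18.3, 23.3 and 28.1 and 17.6, 7.61 and 19.3 normalized counts and a log2 fold change of -0.69 (adjusted p = 0.04995, limma). The call rests on replicate 2 of ATRA with inhibitors, without which the log2 fold change was -0.30 (adjusted p = 0.357, limma), and it was lost in most other settings too.

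**Figure D3:**
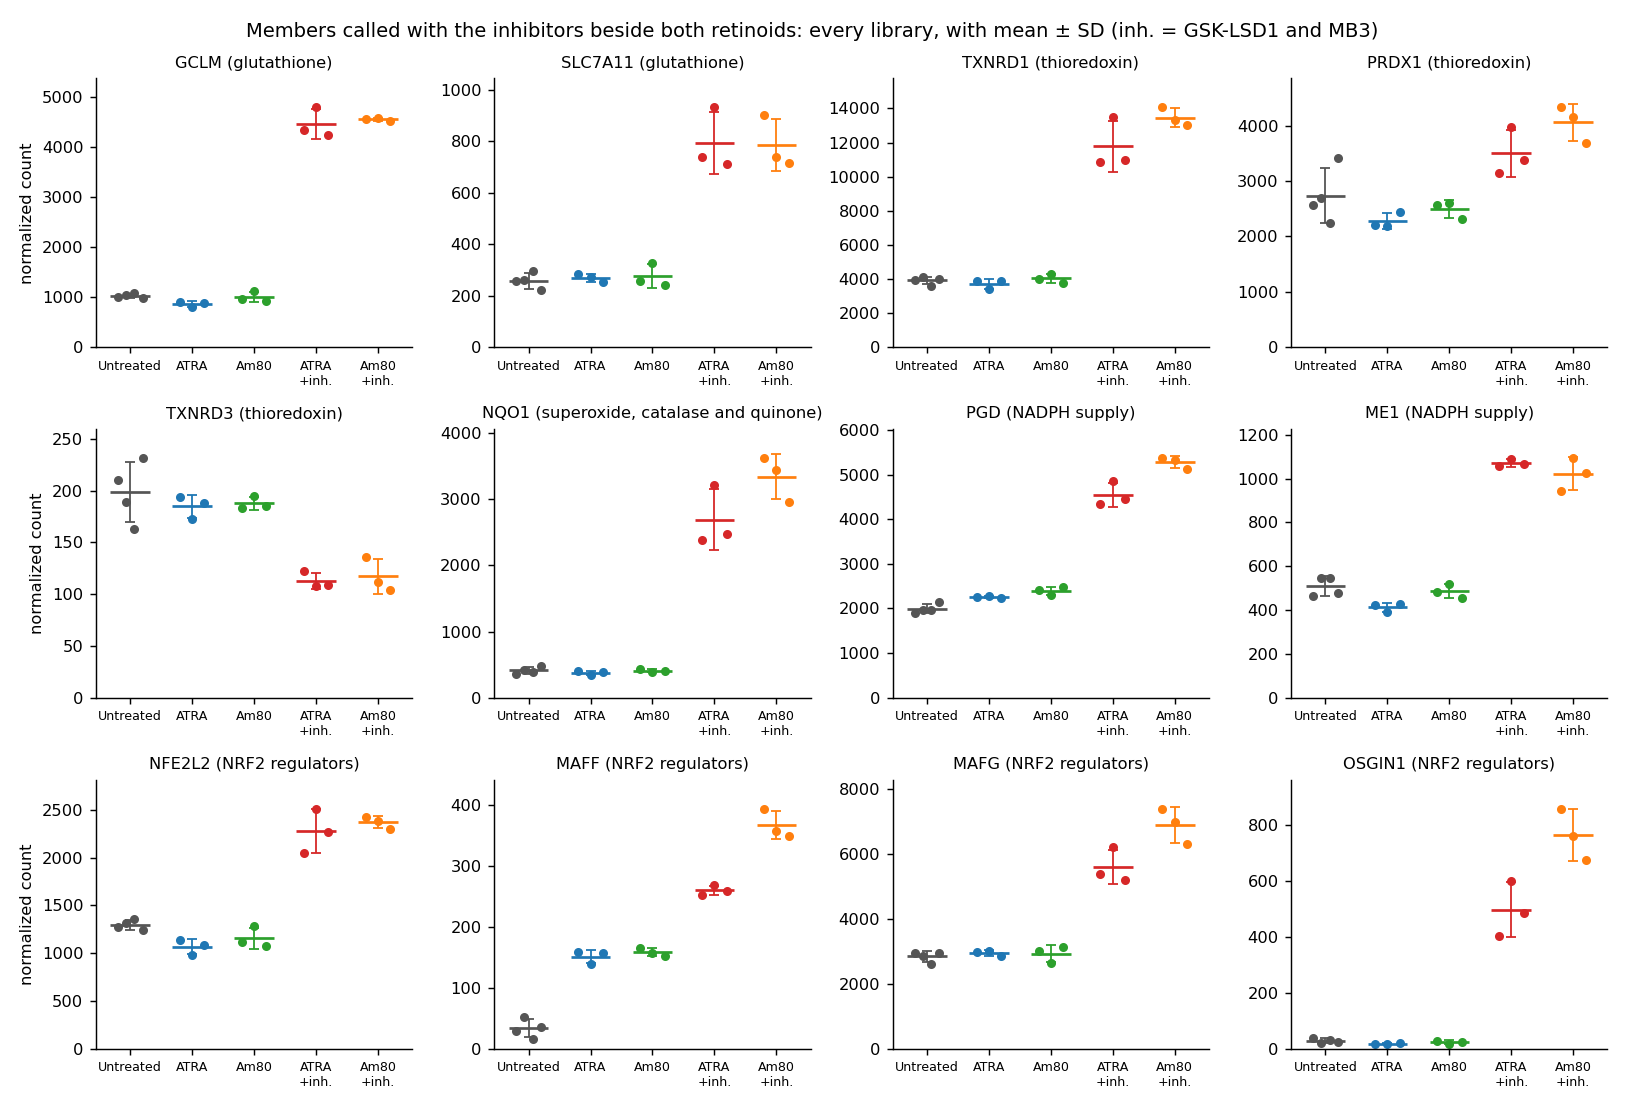
Normalized counts (y axes, from 0) of the 12 genes called with the inhibitors beside both retinoids, in each library of the 5 groups (x axes), with the mean ± SD (n = 4 for untreated cells, n = 3 otherwise). In these panels 11 genes are higher and TXNRD3 is lower in the libraries with inhibitors (inh.) than with the same retinoid alone, without overlap, and MAFF is also higher with the retinoids alone than in untreated cells.

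With the retinoids alone, few antioxidant genes were called. Against untreated cells, 1 of the 50 was higher and 0 lower with ATRA, where 6.52% of all genes tested were higher and 2.94% lower, and 2 were higher and 1 lower with Am80, where 6.41% and 3.76% were. Without the 1.5-fold limit, 14 of the 50 passed the adjusted p-value with ATRA and 11 with Am80 (limma), where 24.6% and 28.8% of all genes did. With ATRA, 14 of the 50 (28%) had a log2 fold change above 0, against 46.6% of all genes. The median was -0.12, against -0.02 over all genes. With Am80, 24 of the 50 (48%) lay above 0, against 49.1%, with a median of -0.02 against -0.01. MAFF was the only gene called with both, rising 4.79-fold with ATRA (adjusted p = 8.62e-08, limma) and 5.01-fold with Am80 (adjusted p = 5.25e-08, limma), and its untreated values of 29.3, 52.6, 16.2 and 35.5 lay below every treated library. IDH1 rose with Am80 from 3506, 3424, 3403 and 3770.3 to 5598, 6274 and 5583 normalized counts (log2 fold change 0.72, adjusted p = 4.57e-09, limma). With ATRA it had 5191, 4961 and 5122, also above all untreated libraries, and a log2 fold change of 0.53 (adjusted p = 5.12e-07, limma) that was under 1.5-fold. MAFK was called lower with Am80 (log2 fold change -0.59, adjusted p = 0.00562, limma), a call that was lost without Am80 replicate 2 (-0.35) or untreated replicate 4 (-0.52), with edgeR (-0.56), with DESeq2 (-0.56) and with a replicate block (-0.52).

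Apart from MAFF, the genes that the inhibitors raised beside both retinoids were not called with a retinoid alone, which does not make all of them unchanged. PGD lay above every untreated library with both retinoids, and GCLM, ME1 and NFE2L2 lay below every untreated library with ATRA. The others overlapped, and the share of all genes without overlap was not counted. GCLM had a log2 fold change of -0.24 with ATRA (adjusted p = 0.0154, limma) and -0.04 with Am80, NQO1 -0.12 and 0.00, and TXNRD1 -0.08 and 0.04. For SLC7A11 the values were 0.06 and 0.09, for ME1 -0.29 and -0.06, for PGD 0.18 and 0.26, and for NFE2L2 -0.28 and -0.17. OSGIN1 had -0.57 and -0.26, uncalled, and with ATRA it was called lower without untreated replicate 2 (-0.72) or without untreated replicate 4 (-0.66).

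**Figure D4:**
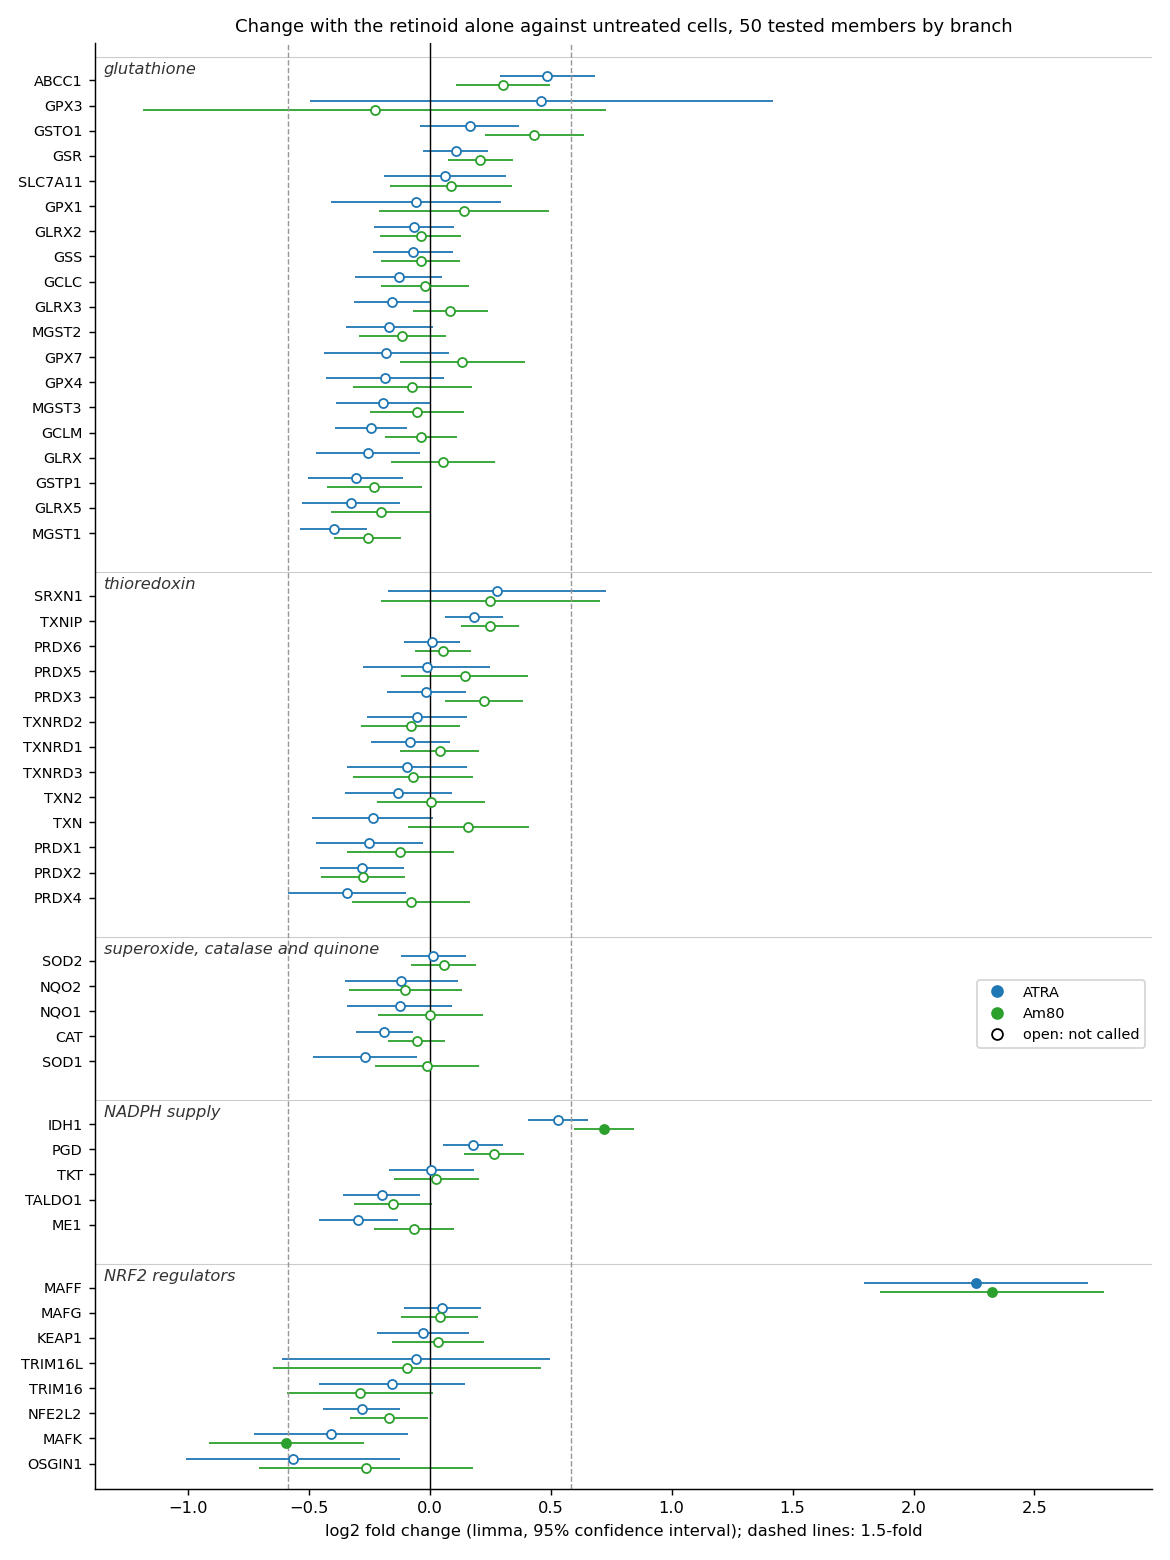
Log2 fold change (x axis, limma with 95% confidence interval) with ATRA (blue) and with Am80 (green) alone against untreated cells for the 50 tested genes, by branch (y axis). Filled points were called, the dashed lines mark 1.5-fold, and MAFF is the only gene filled for both retinoids. The 2 sets of values share the untreated libraries.

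Set against untreated cells, the combinations raised 12 and lowered 4 of the 50 genes with ATRA, where 14.2% and 14.8% of all genes tested were higher and lower, and raised 13 and lowered 1 with Am80, where 12.9% and 13.1% were. Scaled to total reads, these counts were 11 higher and 6 lower with ATRA and 11 and 4 with Am80. Without untreated replicate 4 they were 14 in all with ATRA and 16 with Am80. Higher in both were 12 genes, of which 10 were also higher than with the retinoid alone: GCLM, SLC7A11, TXNRD1, NQO1, PGD, ME1, NFE2L2, MAFF, MAFG and OSGIN1. IDH1 and GSR were called only against untreated cells: IDH1 reached 6872 ± 183 and 6777 ± 209.6 normalized counts from 3526 ± 169 untreated (SD, n = 3, 3 and 4), and GSR 3685 ± 156 and 3654 ± 97.3 from 2383 ± 178. The calls of GSR were lost when the libraries were scaled to total reads (0.48 and 0.43) or by quantiles (0.45 and 0.43). PRDX1 had log2 fold changes of 0.37 and 0.58 against untreated cells and was not called, where replicate 4 reached 3419 normalized counts. Without that library, PRDX1 and SOD1 were called higher with Am80 and inhibitors (0.70 and 0.65). SRXN1 was called higher with Am80 and inhibitors, at 61.4, 67.3 and 55.4 normalized counts against 41.8, 33.2, 28.6 and 44.3 untreated (log2 fold change 0.73, adjusted p = 0.00726, limma), and not when scaled to total reads (0.55). GPX1 and PRDX5 were called lower with ATRA and inhibitors (log2 fold changes -0.71 and -0.72), and without untreated replicate 4 both were under the limit (-0.56 and -0.58). TRIM16 had -0.57 with Am80 and inhibitors, uncalled, and was called lower when scaled to total reads (-0.75), with edgeR (-0.60) or with DESeq2 (-0.59).

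Am80 and ATRA were compared directly at the same dose and time, without and with the inhibitors. No antioxidant gene was called between Am80 and ATRA, where 0.0478% of all genes tested were, nor between the 2 combinations, where 0% were, and the inhibitors' effect did not pass the test of a difference between the retinoids for any gene (0% of all genes, limma interaction). At an unadjusted p under 0.05, 12 of the 50 differed between the retinoids and 15 between the combinations, against 13.9% and 18.1% of all genes, and 6 in the interaction, against 15.1%. edgeR called none of the 50 in the 3 tests, and DESeq2 called OSGIN1 between the combinations. The 95% confidence interval of the difference lay within 1.5-fold for 45 of the 50 between the retinoids and 41 between the combinations, against 73.5% and 70.6% of all genes.

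The direction of the small differences was mostly one-sided. Between the retinoids 42 of the 50 had a value above 0 (higher with Am80), against 51.3% of all genes, and between the combinations 37, against 49.3%, with medians of 0.10 and 0.14 against 0.01 and -0.00. All 50 values come from the same libraries, so the count is a description. OSGIN1 was higher with Am80 and inhibitors than with ATRA and inhibitors, without overlap, by 0.63 on the log2 scale (95% confidence interval 0.16 to 1.10, adjusted p = 0.181, limma). MAFF, MAFG and PGD also did not overlap between the combinations, with 0.50 (0.00 to 0.99), 0.30 (0.13 to 0.47) and 0.21 (0.08 to 0.35), and NQO1 had 0.32 (0.09 to 0.55) with overlap. Genes not raised by the inhibitors beside both retinoids also lay higher without overlap. They were GPX1, GPX4, GSTP1, GSTO1, ABCC1, PRDX2, PRDX5 (0.54), SOD1 (0.42), TALDO1, TKT, KEAP1 and MAFK. No antioxidant gene lay apart in the other direction. The share of all genes without overlap was not counted, and 0% of all genes were called between the combinations. These groups without overlap therefore cannot be read as a difference between the retinoids. For GCLM the difference was 0.03 (-0.13 to 0.19) and for SLC7A11 -0.02 (-0.29 to 0.25). Fitted on the 2 combinations alone, OSGIN1 was called (0.63, adjusted p = 0.000556, limma), as with DESeq2 (0.62, adjusted p = 0.0286, DESeq2).

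Levels can be compared between genes per kb of the principal transcript of GENCODE. In untreated cells the highest of the 51 were MGST1 at 3827 ± 348 normalized counts per kb, GSTP1 at 3678 ± 413, TXN at 3576 ± 730.1, SOD1 at 3493 ± 591, PRDX5 at 3235 ± 762 and GPX4, the peroxidase of membrane lipid peroxides, at 3145 ± 651 (SD, n = 4 each), and no neighbours in this order differed beyond their SD. The genes that the inhibitors raised beside both retinoids stood between rank 10 and rank 48 of the 51. PRDX1 was at 2426 ± 438, TXNRD1 at 1337 ± 73.6, PGD at 1058 ± 56.1, GCLM at 210.2 ± 8.74, NQO1 at 142 ± 16.8, SLC7A11 at 26.8 ± 3.23 and OSGIN1 at 13.4 ± 4.29. With Am80 and the inhibitors TXNRD1 was at 4592 ± 188 per kb, above TXN at 3741 ± 454, while NQO1 was at 1148 ± 118 and OSGIN1 at 366 ± 44.4 (SD, n = 3 each). At the low end, GPX3, a secreted peroxidase, was at 7.06 ± 4.35 per kb in untreated cells and GPX8 at 1.22 ± 1.15.

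**Figure D5:**
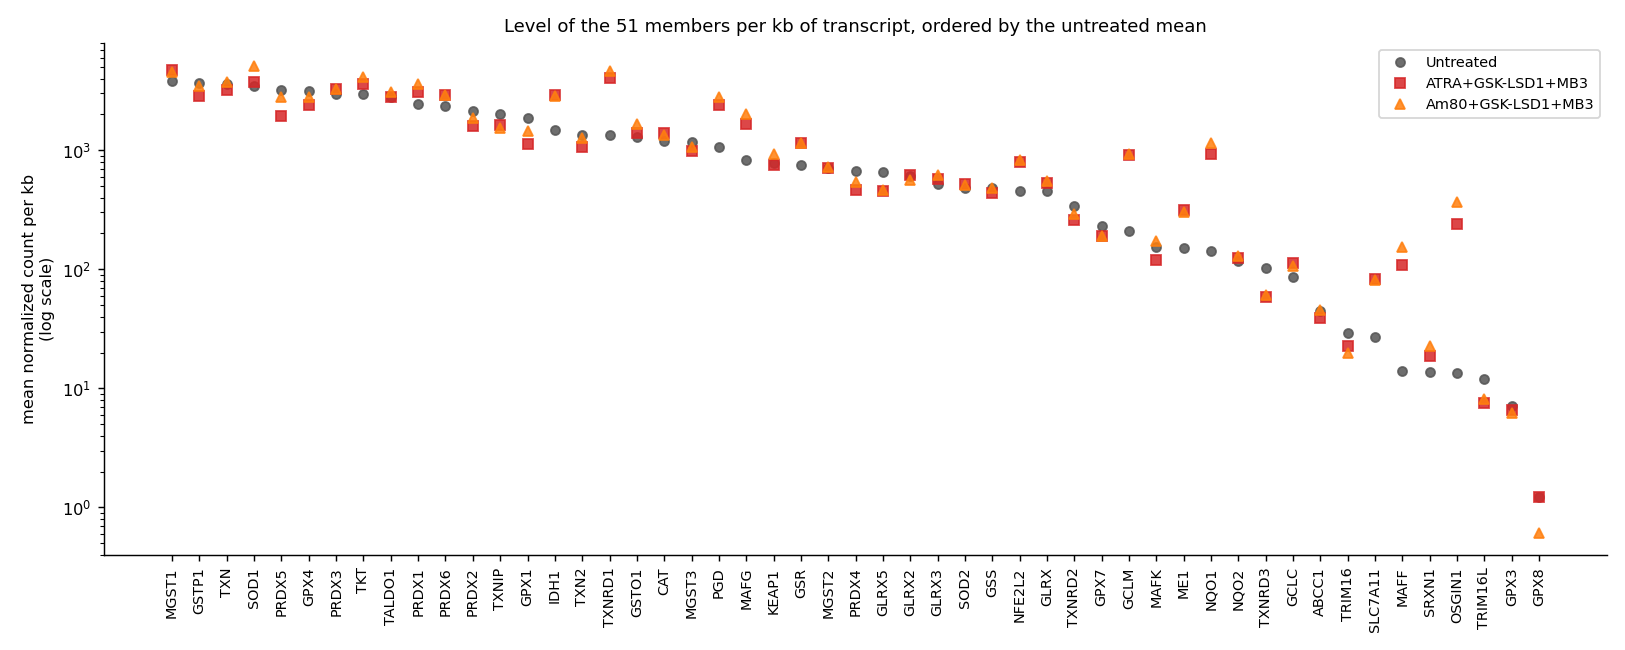
Mean normalized count per kb of transcript (y axis, log scale) of all 51 genes (x axis) in untreated cells (grey, n = 4), with ATRA and inhibitors (red, n = 3) and with Am80 and inhibitors (orange, n = 3), ordered by the untreated mean. The largest gaps between untreated cells and both combinations are at OSGIN1, MAFF, NQO1 and GCLM.

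Other genes of the same pathways were taken from a list of 101, of which 89 passed the filter. With the inhibitors, 14 were higher and 4 lower beside ATRA, 17 higher and 0 lower beside Am80, and 13 were higher in both. Over all genes tested, 8.15% were higher and 11.4% lower beside ATRA, and 6.81% and 8.9% beside Am80. By group, the other NRF2 targets had 10 and 11 higher of 24 tested, the other thioredoxin, sulfoxide and superoxide genes 2 and 3 of 13, the other NRF2 regulators 2 and 1 of 13, the other glutathione genes 0 and 2 of 22, and the other NADPH genes 0 and 0 of 17. The other NRF2 targets stood above the shares of all genes, and the other glutathione and NADPH genes near or below them. The lists were chosen with earlier results of these data known, so this comparison is a description and not a test. The largest mean rises were those of HMOX1, heme oxygenase (4.94 and 5.64 on the log2 scale), LUCAT1, a long noncoding RNA (3.24 and 4.26), and AKR1C1, an aldo-keto reductase (1.78 and 1.92). AKR1C1 has near-identical paralogs, AKR1C2 and AKR1C3, that were also higher in both, so its reads may be shared with them. The other 8 higher in both were EPHX1, SQSTM1, AIFM2, FTH1, SESN3, SLC48A1, FTL and PIR, which include the 2 ferritin chains (FTH1 and FTL) and the KEAP1-binding autophagy receptor SQSTM1. Both retinoids alone already had AKR1C1, AKR1C3, SESN3 and NFE2 called higher, and TNFRSF12A lower. In both combinations against untreated cells, 16 of the list were higher, and HAGH, TNFRSF12A, CBR1 and CBR3 were lower. The shares of all genes called in both were not counted.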

How the data were processed

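RNA-seq of OCI-AML3 cells was measured in 16 libraries of 5 groups, and the members and gene lists were chosen with earlier results of these data known. The authors deposited 1 table of normalized counts (signal: reads per gene divided by a size factor of each library, as DESeq2 gives). The submitters' processing notes name FastQC, cutadapt, STAR, featureCounts and DESeq2, while versions, genome build, annotation and strand setting are not given in the sources used here. No column of per-sample values was left unused (0 columns). Some items are not reported here.

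From the deposited values, whole reads were recovered by the smallest step of each library. All values came out whole (100%) within a tolerance of 0.01, which gave the depths. Genes that averaged at least 10 normalized counts were tested with limma 3.58.1 (R 4.3.3, trend) on log2(normalized count + 1) in one fit of all 16 libraries over 9 comparisons, with Benjamini-Hochberg adjustment over all 14643 genes. Fold changes on this scale understate those of low genes. Called genes had an adjusted p under 0.05 and at least a 1.5-fold change. Levels were divided by the median length of the principal transcripts. Tested on simulated data, limma called 99 of 100 genes changed 4-fold and 93 (beside ATRA) and 92 (beside Am80) of 100 changed 2-fold, with 1 other gene each of 14643. The simulation gave all genes the same dispersion of 0.01 and held no library that deviated from its group. These rates therefore need not hold for the real libraries or for changes near 1.5-fold.

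Values per library are given for the genes called in both inhibitor comparisons or with both retinoids, for 14 genes fixed by name, and for genes called once. The first 3 rises by mean change are named from the other pathway genes. Values of other uncalled members were named after they were seen. Alternatives were pseudocounts of 0.5 and 5, no filter or a mean of 50, quantile and total-read scaling, a fit of the compared groups only, edgeR 4.0.16 and DESeq2 1.42.0 on the recovered reads, a replicate block, other thresholds, and each library left out.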

Additional observations from a re-analysis of the deposited data

Results flagged for a closer look

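In untreated cells, 3 of the 50 tested antioxidant genes had 1 library far from the other 3, replicate 4 in each. MGST2 had 853.1 normalized counts there and 688 to 712 in the others, MGST3 had 1273 and 916 to 955, and GLRX3 had 1547.77 and 1272 to 1275. The gap to the nearest library took a larger share of the range than Dixon's 95% critical value for 4 samples. Chance exceeds this value in about 1 in 20 independent groups, but the 50 genes share the same 4 libraries, so their number cannot be set against that rate. Replicate 4 was the highest untreated library for 33 of the 50 genes and for 37.6% of all genes tested. Its pairs with the other untreated libraries had a chi-square per degree of freedom of 15.4 to 23.3, against 3.66 to 5.30 for the other untreated pairs. The cause was not tested. None of the 3 genes was called in any comparison.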

How the results depend on the processing

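Of 65 calls of single antioxidant genes, other settings kept 619 of 647 values past the threshold and lost 28, leaving out 1 library kept 1020 of 1040 and lost 20, and 0 reversed. With no limit on the fold change, the counts of called genes against untreated cells were 14 for ATRA and 11 for Am80 (1 and 3 with the limit), 34 and 29 with the combinations against untreated cells (16 and 14), and 28 and 27 with the inhibitors beside ATRA and Am80 (17 and 14), where 24.6%, 28.8%, 60.2%, 54.7%, 49.3% and 39.5% of all genes passed. With an adjusted p under 0.01 and a log2 fold change above 1 they were 1 with Am80, 8 and 9 with the combinations, and 8 and 10 with the inhibitors beside ATRA and Am80, where 4.27%, 10.7%, 10.1%, 5.1% and 4.71% of all genes passed. Quantile normalization gave 2 with ATRA, where OSGIN1 was added. Between the combinations, 1 gene (OSGIN1) was called in a fit of those groups alone and 1 with DESeq2, against 0. With 1 library left out, the counts ranged from 1 to 2 with ATRA, 2 to 3 with Am80, 14 to 17 and 14 to 16 with the combinations against untreated cells, and 15 to 17 and 14 to 15 with the inhibitors. The cause was not tested, apart from the looser or stricter threshold itself.

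Replicate numbers did not pair the libraries: same-numbered libraries of different groups had correlated deviations of -0.11 to 0.19 (median -0.01, over 0.1 in 4 of 30 pairs), and 4 of 15 correlated best with their own number. With a replicate block, which drops untreated replicate 4 from the comparison, 2 genes were called with ATRA against 1, and counts were 2 with Am80, 14 and 16 with the combinations against untreated cells and 17 and 14 with the inhibitors. Depth limits the low genes most: MAFF, OSGIN1, SRXN1, TRIM16L and GPX3 had the fewest reads of the tested genes in untreated cells.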
